A study of Homo sapiens with 18 samples.

Results

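Interferon regulatory factors (IRFs) were described in THP-1, a leukaemia line of human monocytic cells that carries the MLL-AF9 fusion. Rows of the deposited expression tables were taken by gene name: IRF1, IRF2, IRF3, IRF4, IRF5, IRF7 and IRF8, 7 genes of 19784. IRF9 was set beside them. Poly(A) RNA was sequenced in 18 libraries of 6 groups. In the first experiment, the PHF8 line carried added PHF8, a JmjC-domain enzyme that removes methyl groups from histones. The F279S line carried a form of it known as catalytically inactive, and wt was the parental line (n = 4 libraries each). In the second, ERDD, ERPHF8 and ERAA were harvested on day 3 (n = 2 each), and their labels name the forms PHF8DD, PHF8 and PHF8AA. The labels give 100 nM 4-hydroxytamoxifen (4-OHT) for ERDD and ERAA and no treatment for ERPHF8. A comparison with ERPHF8 is therefore also one of libraries with and without a 4-OHT label. The letters ER, DD and AA are not spelled out. All 6 groups share the same leukaemic background and were grown in DMEM supplemented with 10% FBS, and every line except wt carried an added form of PHF8. The study asked how chromatin regulation by PHF8 bears on interferon signalling and on self-renewal of leukaemic cells. Nothing in the labels says that libraries of a group came from separate cultures, so p-values measure the spread between libraries, which may be technical.

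IRFs share a DNA-binding domain that reads repeats of GAAA, the core of the interferon-stimulated response element (ISRE). IRF3, IRF7 and IRF5 lie latent in the cytoplasm until kinases downstream of nucleic acid sensors and Toll-like receptors phosphorylate them, whereupon they enter the nucleus and switch on interferon genes. Type I interferon then acts through a complex that holds IRF9, which raises IRF7 in turn. IRF1 is an interferon-gamma target that activates, IRF2 binds the same sites and is mostly known as a repressor, and IRF8 and IRF4 act with partners such as PU.1 (SPI1) and BATF in blood cell lineages. IRF8 is known as a factor of monocyte and dendritic cell development. RNA levels carry no information on phosphorylation or nuclear entry.

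Library totals were 18.2 to 51.5 M reads, and the ER libraries held 40.6 to 41.3 M each. Levels are given as CPM, a gene's reads scaled to a library of 1000000 reads. In PHF8, F279S and wt, libraries 3 and 4 stood apart from libraries 1 and 2. Between those pairs, 33.9% of 13683 genes were higher in libraries 3 and 4 and 29% were lower (limma, group and library pair as terms, adjusted p below 0.05). The members' results of the first experiment are given within each pair as well. Counts within each pair are also given for the interferon and ISRE targets, and for the other gene lists in PHF8 against wt only. All 10 monocytic markers listed (among them LYZ, CD33, SPI1, CSF1R and CD14) averaged at least 1 CPM in every group. Those of T cells, epithelium and erythroid cells summed to under 1 CPM in every library. Other sets were higher. The 3 NK cell markers summed to 6.435 to 9.74 CPM in the PHF8 line, 1.86 to 3.70 CPM in F279S and 1.80 to 3.705 CPM in wt, nearly all of it NCAM1. The 3 fibroblast markers summed to 1.18 to 24.3 CPM in the PHF8 line, 1.009 to 31.9 CPM in F279S and 0.824 to 1.40 CPM in wt. In the ER lines their sums were 4.39 to 4.70 CPM (ERDD), 3.16 to 3.42 CPM (ERPHF8) and 4.79 to 4.85 CPM (ERAA). Plasma cell markers summed to at most 8.13 CPM and those of plasmacytoid dendritic cells to 28.1 to 85.5 CPM over the 18 libraries. Their part in the results was not tested. PHF8 RNA followed the labels, with means of 2020 CPM (PHF8 line), 5381 CPM (F279S) and 50.6 CPM (wt), and of 1109 CPM (ERDD), 1906 CPM (ERPHF8) and 2150 CPM (ERAA).

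Promoter sequence was available for 4 of the 7 members (IRF1, IRF4, IRF5 and IRF8; RefSeq, GRCh38.p14, 250 bases before to 50 after a start). IRF2, IRF3 and IRF7 were not matched. Windows were searched on both strands for GAAANNGAAA (2 ISRE repeats in tandem), AANNGAAA (the core of the IRF site, which the tandem repeat contains) and TTCNNNGAA (the gamma-activated site, the same on both strands). Of 35116 promoter windows of 300 bases in the table, 3.57% held the first, 22.8% the second and 7.66% the third. No member window held the tandem repeat. The window of IRF1 (chr5:132490724-132491023, minus strand) held 1 gamma-activated site, 124 to 116 bases before the start. It is shown because IRF1 is the member best known as an interferon-gamma target, with the site in capitals.
IRF1: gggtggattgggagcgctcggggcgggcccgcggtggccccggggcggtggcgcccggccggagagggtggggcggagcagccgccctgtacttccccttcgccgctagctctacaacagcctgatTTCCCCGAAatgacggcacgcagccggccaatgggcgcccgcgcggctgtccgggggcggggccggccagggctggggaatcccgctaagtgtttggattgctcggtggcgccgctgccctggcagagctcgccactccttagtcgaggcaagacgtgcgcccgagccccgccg

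IRF5 had 4 windows. The 1 at chr7:128940420-128940719 (plus strand) held a core site on the reverse strand, 33 to 26 bases before its start, and is shown because IRF5 is the member that fell in the most comparisons. IRF8, the most abundant member, had 2 windows, and that at chr16:85902580-85902879 (plus strand) held 2 cores. Both starts lie inside the span over which reads of the gene were counted, and capitals mark the cores. No IRF8 window covered the first base of that span (85898803), so the sequence around it was not searched. The IRF5 windows nearest the start of its span (chr7:128937677-128937976 and chr7:128937967-128938266) held no match. A match is a run of letters and is not evidence of binding.
IRF5: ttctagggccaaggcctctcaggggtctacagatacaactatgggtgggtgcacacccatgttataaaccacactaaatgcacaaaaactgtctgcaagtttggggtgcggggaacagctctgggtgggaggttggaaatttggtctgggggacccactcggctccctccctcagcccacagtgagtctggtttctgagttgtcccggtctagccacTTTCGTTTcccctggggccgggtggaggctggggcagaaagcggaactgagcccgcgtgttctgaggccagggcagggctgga
IRF8: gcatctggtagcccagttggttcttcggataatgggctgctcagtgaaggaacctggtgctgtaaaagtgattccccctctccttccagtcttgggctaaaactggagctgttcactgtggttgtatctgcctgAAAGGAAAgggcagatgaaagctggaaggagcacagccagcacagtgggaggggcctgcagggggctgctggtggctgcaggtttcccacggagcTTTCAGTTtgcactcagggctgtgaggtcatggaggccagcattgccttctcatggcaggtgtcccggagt

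To set the members beside each other, reads were divided by the kilobases of merged GENCODE v29 exons. On this scale, CPM per kb of exon, IRF8 stood first in every group. It averaged 149 ± 21.9 in the PHF8 line, 192 ± 20.4 in F279S and 190 ± 13.6 in wt (SD, n = 4 each), and 106 ± 0.716 in ERDD, 101 ± 0.386 in ERPHF8 and 99.5 ± 1.28 in ERAA (SD, n = 2 each). IRF8 thus made up 72.7 to 77.5% of the members' summed CPM in the first experiment and 58.2 to 64.7% in the second.

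In the PHF8 line the order below IRF8 was IRF5 (25.5 ± 0.633), IRF3 (20.2 ± 1.13), IRF2 (8.45 ± 0.758), IRF7 (5.24 ± 0.766), IRF1 (3.33 ± 0.344) and IRF4 (0.136 ± 0.0609), in CPM per kb of exon. F279S had the same order, with IRF5 at 33.3 ± 1.41, IRF7 at 5.91 ± 0.764 and IRF1 at 3.70 ± 0.830. The order was the same in wt, with IRF5 (34.2 ± 0.891), IRF3 (25.8 ± 3.56), IRF2 (6.63 ± 1.05), IRF7 (4.03 ± 1.15), IRF1 (3.49 ± 0.853) and IRF4 (0.0382 ± 0.0167). The ranges of IRF2 and IRF7 overlapped in F279S, and those of IRF7 and IRF1 in wt; all other neighbours in the order were apart in the first experiment. ERDD had a different order. There IRF7 was the second at 48.5 ± 1.75, above IRF5 (27.0 ± 0.185), IRF3 (19.1 ± 0.0173) and IRF2 (14.1 ± 0.0903). In ERPHF8, IRF7 was the third at 19.0 ± 0.00986, next to IRF3 at 17.9 ± 0.443. In ERAA it was the fifth at 9.50 ± 0.333, below IRF2 at 10.8 ± 0.370. Neighbours in the order did not overlap in any ER line, each with 2 libraries. Reads were counted over the whole gene span, so intron reads enter these levels, most of all for IRF2, whose span is 86.9 kb with 3.12 kb of exon.

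**Figure D1:**
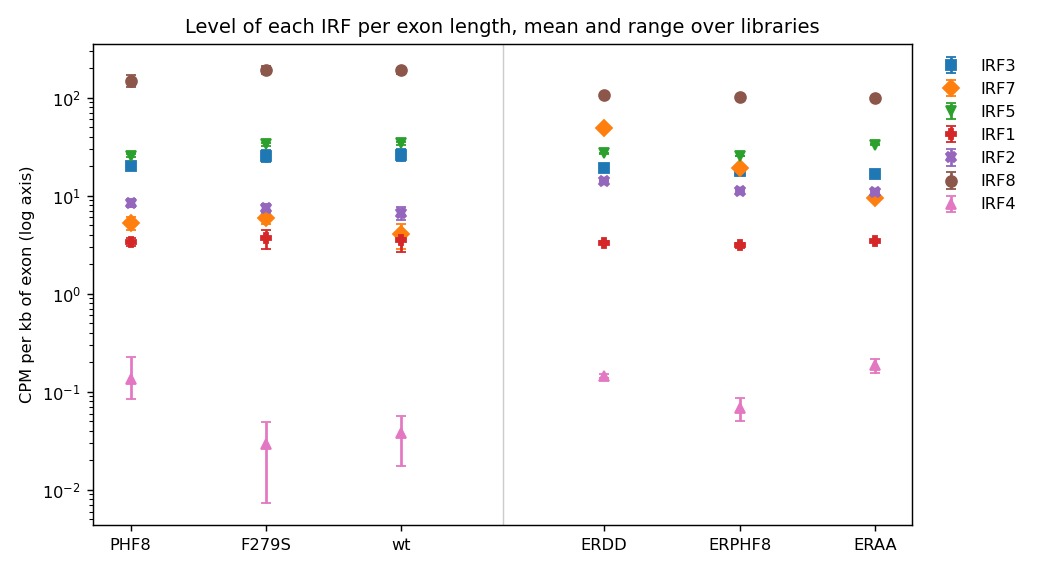
Level of each of the 7 IRFs as CPM per kb of merged exon (log axis) in the 6 groups, with points at the mean and bars over the range of libraries (4 each for PHF8, F279S and wt, 2 each for ERDD, ERPHF8 and ERAA). IRF8 was the highest in all groups, and IRF7 was the second in ERDD and the fifth in ERAA.

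IRF7, the amplifier of type I interferon induction (chromosome 11, 612553 to 615999, hg38), differed most among the ER lines. It had 124 and 131 CPM in ERDD, 49.8 and 49.8 CPM in ERPHF8, and 24.4 and 25.6 CPM in ERAA. The 3 lines did not overlap, with ERDD highest and ERAA lowest. IRF7 rose in ERDD against ERAA by a log2 change of 2.33 ± 0.05 (SE, limma, adjusted p = 2.3e-08), and the ratio of means was 5.10. Against ERAA it also rose in ERPHF8, by 0.98 ± 0.05 (adjusted p = 9.5e-06), a ratio of 1.995. ERDD exceeded ERPHF8 by 1.35 ± 0.05 (adjusted p = 1.2e-06), a ratio of 2.56. These 3 comparisons share libraries. Among 13831 genes ordered by rise, IRF7 was number 38 in ERDD against ERAA and number 92 in ERPHF8 against ERAA. IRF9, the DNA-binding part of the complex that type I interferon activates, averaged 77.5 ± 0.085 CPM in ERDD, 48.4 ± 1.05 CPM in ERPHF8 and 30.2 ± 2.05 CPM in ERAA (SD, n = 2 each).

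The lines of the first experiment, which was fitted apart, stood lower. IRF7 had 11.7, 12.4, 15.9 and 15.1 CPM in PHF8 libraries 1 to 4, 16.9, 17.6, 14.0 and 13.6 CPM in those of F279S, and 8.46, 7.57, 12.7 and 13.6 CPM in those of wt. In PHF8 and wt, libraries 3 and 4 were the higher ones, and in F279S libraries 1 and 2 were. The lowest F279S library lay at the level of the highest wt library, and the PHF8 line overlapped both. IRF7 did not pass the test in PHF8 against wt (log2 change 0.39 ± 0.18, adjusted p = 0.16), in F279S against wt (0.57 ± 0.18, adjusted p = 0.49) or in PHF8 against F279S (-0.17 ± 0.18, adjusted p = 0.58). The intervals of these changes, at 95%, were -0.0034 to 0.79, 0.17 to 0.96 and -0.57 to 0.23.

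Within the pairs the F279S result divided. In libraries 1 and 2 alone, F279S exceeded wt by 1.06 ± 0.10 (adjusted p = 5.2e-08). In libraries 3 and 4 alone it differed by 0.07 ± 0.08 (adjusted p = 0.71). The difference between the pairs was -0.99 ± 0.12 (interaction with the pair, adjusted p = 0.0012), where 0.899% of all genes passed in either direction. PHF8 against wt gave 0.56 (adjusted p = 4.8e-05) in libraries 1 and 2 and 0.23 (adjusted p = 0.051) in libraries 3 and 4. PHF8 against F279S gave -0.50 (adjusted p = 0.00017) and 0.16 (adjusted p = 0.16), an interaction of 0.66 ± 0.12 (adjusted p = 0.003). In that interaction 21.8% of all genes passed.

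**Figure D2:**
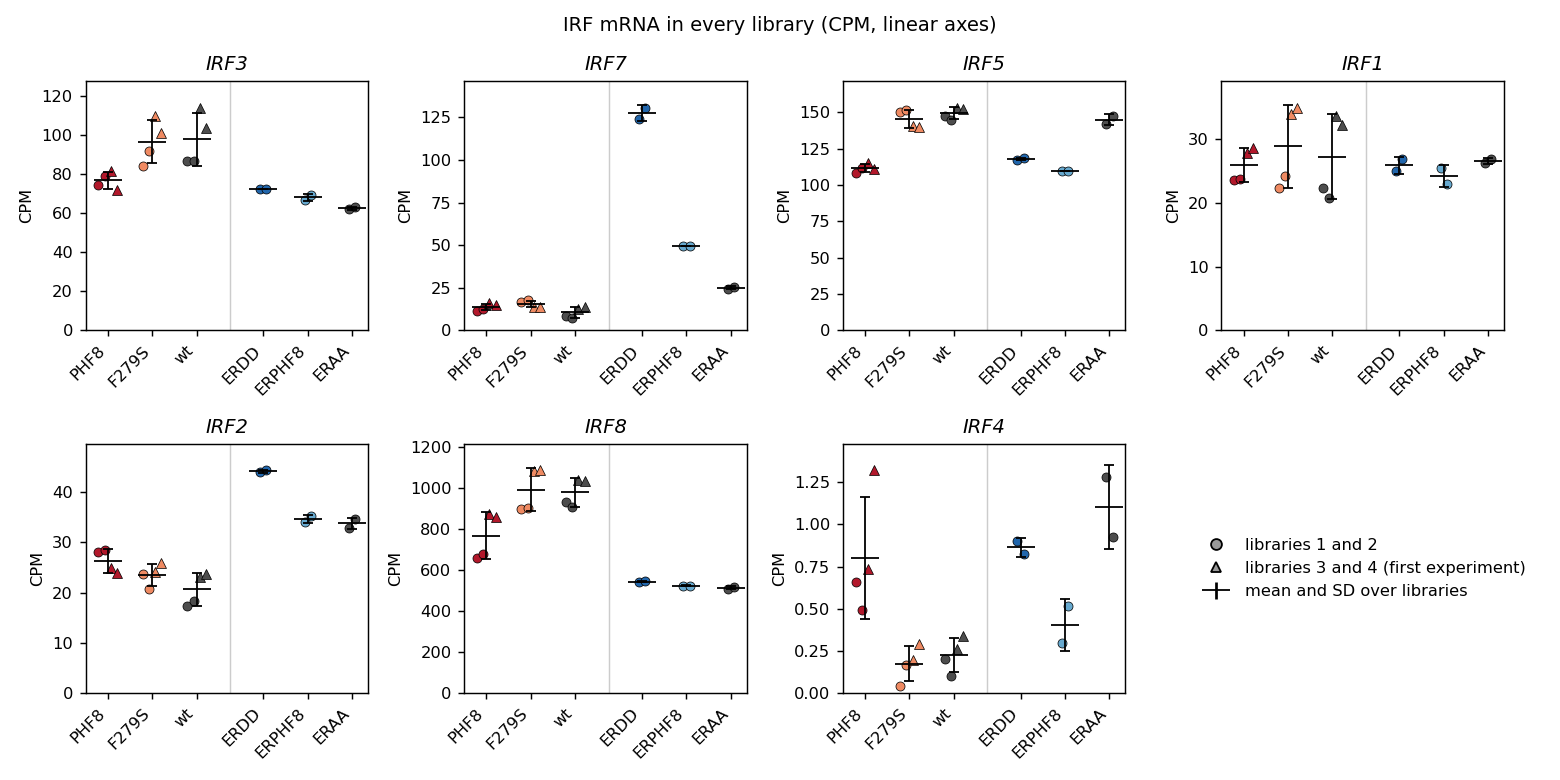
CPM of each of the 7 IRFs in each library (linear axes, 1 panel a gene; circles are libraries 1 and 2, triangles libraries 3 and 4; bars are the mean and SD over 4 or 2 libraries). IRF7 stood at 124 and 131 CPM in ERDD, far above the other groups, and IRF5 in the PHF8 line (108 to 115 CPM) lay below wt (145 to 153 CPM).

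IRF5, which acts downstream of MYD88-dependent Toll-like receptors (chromosome 7, 128937612 to 128950035), fell in the PHF8 line and, among the ER lines, in ERDD and ERPHF8. The PHF8 line had 108, 112, 115 and 111 CPM, F279S had 150, 152, 141 and 140 CPM, and wt had 148, 145, 153 and 152 CPM. Every PHF8 library lay below every F279S and wt library, while F279S and wt overlapped. The log2 change was -0.42 ± 0.05 against wt (adjusted p = 0.00011) and -0.38 ± 0.05 against F279S (adjusted p = 0.00025). IRF5 in F279S against wt was -0.04 ± 0.05 (adjusted p = 1, 95% interval -0.15 to 0.07). In IRF5, PHF8 against wt gave -0.41 in libraries 1 and 2 and -0.43 in libraries 3 and 4, and PHF8 against F279S gave -0.46 and -0.31. All 4 values passed.

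Among the ER lines IRF5 had 118 and 119 CPM in ERDD, 110 and 110 CPM in ERPHF8, and 142 and 147 CPM in ERAA. Both libraries of ERDD and of ERPHF8 lay below both of ERAA. It fell in ERDD by 0.29 ± 0.04 on the log2 scale (adjusted p = 0.0003) and in ERPHF8 by 0.40 ± 0.04 (adjusted p = 0.00014), each against ERAA. ERDD against ERPHF8 was 0.10 ± 0.04 and did not pass (adjusted p = 0.056). It did pass with only those 2 groups in the fit (adjusted p = 0.0066) and with no filter on low values (adjusted p = 0.049). In bulk RNA, fewer cells with a transcript and less of it per cell cannot be told apart.

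IRF3, the constitutive partner of IRF7 (chromosome 19, 49659569 to 49665875), fell in the PHF8 line and was slightly higher in ERDD. It had 74.5, 79.0, 81.5 and 72.0 CPM in PHF8 libraries 1 to 4, 84.1, 91.9, 110 and 101 CPM in those of F279S, and 86.4, 86.8, 114 and 104 CPM in those of wt. The PHF8 libraries lay below all the others. The log2 change was -0.34 ± 0.10 against wt (adjusted p = 0.038) and -0.32 ± 0.10 against F279S (adjusted p = 0.047). F279S against wt was -0.01 ± 0.10 (adjusted p = 1). Within the pairs, PHF8 against wt was -0.17 in libraries 1 and 2 and -0.50 in libraries 3 and 4 (adjusted p = 0.018 and 0.0038), and the pairs differed by -0.33 ± 0.10 (adjusted p = 0.032). PHF8 against F279S was -0.20 in libraries 1 and 2 and -0.45 in libraries 3 and 4, and both passed.

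The IRF3 call against wt was lost without any 1 of PHF8 libraries 1, 2, 3 or 4 (-0.32, -0.35, -0.37 and -0.31) or wt libraries 3 or 4 (-0.26 and -0.31), with adjusted p of 0.053 to 0.1. Against F279S it was lost without any 1 of PHF8 libraries 1 to 4 (-0.31, -0.34, -0.35 and -0.29) or F279S libraries 2, 3 or 4 (-0.35, -0.26 and -0.30), with adjusted p of 0.064 to 0.12. Both calls were also lost with each pair of libraries averaged into 1 value (adjusted p = 0.08 and 0.091), and that against F279S with no filter on low values (0.059). Both held with the replicate number as a block (adjusted p = 0.0022 and 0.0029) and the library pair as a factor (0.0022 and 0.003). They also held with median-ratio scaling (0.014 and 0.016).

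In the ER lines IRF3 had 72.4 and 72.3 CPM in ERDD, 66.8 and 69.2 CPM in ERPHF8, and 62.1 and 63.0 CPM in ERAA. The lines did not overlap, in the order ERDD, ERPHF8, ERAA. It rose in ERDD against ERAA by 0.21 ± 0.04 (adjusted p = 0.0029). ERPHF8 against ERAA was 0.12 ± 0.04 (adjusted p = 0.045), a call lost without ERPHF8 library 1 (0.15, adjusted p = 0.1) or ERPHF8 library 2 (0.10, adjusted p = 0.27). ERDD against ERPHF8 was 0.09 ± 0.04 (adjusted p = 0.12). The first 734 bases of IRF3 lie under BCL2L12 on the other strand, and the reads appear to have been counted without strand, so reads there may belong to either gene. BCL2L12 itself changed by -0.25 in PHF8 against wt (adjusted p = 0.027), -0.32 in PHF8 against F279S (0.0073) and 0.39 in ERDD against ERAA (0.00045). How much of the IRF3 values came from BCL2L12 was not tested.

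IRF1 and IRF2 are the activator and the repressor that read the same sites. IRF1 passed no comparison of lines over all libraries, whereas IRF2 rose in PHF8 against wt and in ERDD against both other ER lines. IRF1 (chromosome 5, 132481609 to 132490798) had 23.6, 23.7, 27.9 and 28.7 CPM in PHF8 libraries 1 to 4, 22.4, 24.2, 33.95 and 34.9 CPM in those of F279S, and 22.3, 20.7, 33.7 and 32.2 CPM in those of wt. In each line libraries 3 and 4 were above libraries 1 and 2, and the lines overlapped. The pair effect was 0.47 ± 0.06 on the log2 scale (adjusted p = 3.2e-05). No line differed from another in the test: PHF8 against wt was -0.04 ± 0.19 (adjusted p = 0.92), F279S against wt 0.09 ± 0.19 (1), and PHF8 against F279S -0.13 ± 0.19 (0.70). The 95% interval of the first was -0.44 to 0.36.

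In libraries 3 and 4 alone, IRF1 was lower in PHF8 than in wt by a log2 change of -0.22 (adjusted p = 0.025) and than in F279S by -0.28 (adjusted p = 0.011). In libraries 1 and 2 the same changes were 0.14 (adjusted p = 0.16) and 0.02 (adjusted p = 0.84). The interaction of PHF8 against wt with the pair was -0.35 ± 0.10 (adjusted p = 0.016), and 30.5% of all genes passed in that interaction. For PHF8 against F279S it was -0.30 ± 0.10 (adjusted p = 0.04). Among the ER lines IRF1 had 25.0 and 26.8 CPM in ERDD, 25.5 and 23.0 CPM in ERPHF8, and 26.3 and 26.9 CPM in ERAA. It passed no comparison there (-0.04 ± 0.07 in ERDD against ERAA, adjusted p = 0.64; -0.13 ± 0.07 in ERPHF8 against ERAA, 0.14; 0.09 ± 0.07 in ERDD against ERPHF8, 0.28). IRF1 thus stood at 20.7 to 34.9 CPM in all 18 libraries, the group means between 24.3 and 28.9 CPM. GENCODE v29 lists the transcripts C5orf56 and AC116366.3 on the opposite strand across IRF1, so some of its reads may be theirs.

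IRF2 (chromosome 4, 184387713 to 184474580) had 28.1, 28.5, 24.8 and 23.8 CPM in PHF8 libraries 1 to 4, 23.6, 20.7, 24.0 and 25.8 CPM in those of F279S, and 17.4, 18.3, 23.1 and 23.8 CPM in those of wt. The lowest PHF8 library lay just above the highest wt library, and F279S overlapped both. It rose in PHF8 against wt by 0.35 ± 0.12 (adjusted p = 0.049). F279S against wt was 0.19 ± 0.12 (adjusted p = 0.89) and PHF8 against F279S 0.16 ± 0.12 (adjusted p = 0.39). The rise stood in libraries 1 and 2 (0.65 ± 0.08, adjusted p = 7.4e-07) and was 0.05 ± 0.07 in libraries 3 and 4 (adjusted p = 0.57). The interaction was -0.60 ± 0.11 (adjusted p = 0.0018). PHF8 against F279S divided likewise, with 0.35 (adjusted p = 0.001) in libraries 1 and 2, -0.03 (0.73) in libraries 3 and 4 and an interaction of -0.39 ± 0.11 (adjusted p = 0.026). F279S against wt passed in libraries 1 and 2 (0.30, adjusted p = 0.016) and was 0.08 in libraries 3 and 4.

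The IRF2 call against wt was lost without any 1 of PHF8 libraries 1, 2, 3 or 4 (0.32, 0.31, 0.38 and 0.40) or wt libraries 1 or 2 (0.27 and 0.30), with adjusted p of 0.053 to 0.13. It was also lost in voom on whole reads (0.32, adjusted p = 0.066), with no filter on low values (0.065), with only the 2 groups in the fit (0.077) and with pairs averaged (0.19). The call held with the replicate number as a block (adjusted p = 0.028), the library pair as a factor (0.014) and median-ratio scaling (0.046).

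Among the ER lines the separation was clearer. IRF2 had 43.9 and 44.3 CPM in ERDD, 34.1 and 35.2 CPM in ERPHF8, and 32.9 and 34.5 CPM in ERAA. ERDD lay above both other lines, which overlapped. It rose in ERDD by 0.38 ± 0.05 against ERAA (adjusted p = 0.00027) and by 0.34 ± 0.05 against ERPHF8 (adjusted p = 0.0011). ERPHF8 against ERAA was 0.04 ± 0.05 (adjusted p = 0.56, 95% interval -0.08 to 0.15).

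IRF8, the monocyte lineage factor (chromosome 16, 85898803 to 85922609), fell in the PHF8 line. It had 660, 680, 873 and 858 CPM in PHF8 libraries 1 to 4, 900, 903, 1081 and 1086 CPM in those of F279S, and 931, 906, 1041 and 1037 CPM in those of wt. All 4 PHF8 libraries lay below all libraries of the other lines, and within each line libraries 3 and 4 were higher. IRF8 changed by -0.36 ± 0.11 against wt (adjusted p = 0.036) and by -0.38 ± 0.11 against F279S (adjusted p = 0.032). F279S against wt was 0.02 ± 0.11 (adjusted p = 1, 95% interval -0.22 to 0.26). In libraries 1 and 2 the change against wt was -0.46 (adjusted p = 8.5e-08), and in libraries 3 and 4 it was -0.26 (adjusted p = 0.0077), with an interaction of 0.19 ± 0.07 (adjusted p = 0.044). Against F279S the pairs gave -0.43 and -0.32, and both passed.

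The IRF8 call against wt was lost without PHF8 library 1 or 2 (-0.29 and -0.31) or wt library 1, 3 or 4 (-0.38, -0.33 and -0.33), with adjusted p of 0.055 to 0.11. Against F279S it was lost without PHF8 library 1 or 2 (-0.31 and -0.32) or F279S library 3 or 4 (each -0.33), with adjusted p of 0.079 to 0.097. With no filter on low values the adjusted p was 0.062 against wt and 0.054 against F279S. With only those 2 groups in the fit it was 0.053 against F279S. Both IRF8 calls held in the blocked fit (adjusted p = 0.00015 against wt and 0.00012 against F279S). They also held when library pair entered as a factor (4e-05 and 3e-05), where the SE was 0.046 instead of 0.11. Averaging each pair of libraries kept both calls as well (adjusted p = 0.037 and 0.035). The 10 monocytic markers summed to 2071 to 2134 CPM in the PHF8 line, 2383 to 2507 CPM in F279S and 2908 to 3222 CPM in wt, and without CTSG to 943 to 1218 CPM in the PHF8 line, 1547 to 1725 CPM in F279S and 1609 to 2088 CPM in wt. Among these markers LYZ alone averaged 252.5 CPM in the PHF8 line, 664.5 CPM in F279S and 855 CPM in wt, so the sums lean on it. CSF1R went the other way, with 165.2 CPM in the PHF8 line, 147.3 CPM in F279S and 138.7 CPM in wt. CD14 was not lower in the PHF8 line (5.378 CPM) than in wt (5.254 CPM). The remaining markers averaged lower in the PHF8 line than in wt. The part of the markers in the IRF8 values was not tested.

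IRF8 was nearly level among the ER lines, with 542 and 547 CPM in ERDD, 525 and 522 CPM in ERPHF8, and 509 and 519 CPM in ERAA. ERDD lay above the others by a margin that did not pass (0.08 ± 0.04 against ERAA, adjusted p = 0.081; 0.06 ± 0.04 against ERPHF8, adjusted p = 0.23). The first of these passed without ERAA library 1 (0.07, adjusted p = 0.027) or ERAA library 2 (0.10, adjusted p = 0.0053), and the second with only the 2 groups in the fit (adjusted p = 0.03). ERPHF8 against ERAA was 0.03 ± 0.04 (adjusted p = 0.58, 95% interval -0.06 to 0.11). The monocytic markers summed to 2141 to 2181 CPM in ERDD, 2547 to 2589 CPM in ERPHF8 and 3077 to 3367 CPM in ERAA. CTSG alone averaged 832 CPM in ERDD, 1462 CPM in ERPHF8 and 1810 CPM in ERAA, and the other 9 markers summed to 1323 to 1335 CPM in ERDD, 1101 to 1111 CPM in ERPHF8 and 1404 to 1421 CPM in ERAA.

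IRF4, the lymphoid counterpart of IRF8 (chromosome 6, 391739 to 411447), was near the floor and did not pass the filter on low values. It had 0.659, 0.493, 0.735 and 1.32 CPM in PHF8 libraries 1 to 4, 0.0433, 0.164, 0.199 and 0.291 CPM in those of F279S, and 0.200, 0.103, 0.260 and 0.337 CPM in those of wt. All 4 PHF8 libraries lay above all libraries of the other lines. Behind these values stood 109 reads in all in the PHF8 line, 29 in F279S and 24 in wt. The ER lines had 71 in ERDD, 33 in ERPHF8 and 90 in ERAA. With no filter on low values, the log2 change was 0.82 against wt (adjusted p = 0.0092) and 0.92 against F279S (adjusted p = 0.005), on a scale that understates changes at such levels. Without that filter, 9.59% of 18756 genes were called higher in PHF8 against wt and 9.01% in PHF8 against F279S. In the ER lines IRF4 had 0.902 and 0.824 CPM in ERDD, 0.295 and 0.515 CPM in ERPHF8, and 1.28 and 0.926 CPM in ERAA, with ERPHF8 lowest. With no filter, ERPHF8 against ERAA was -0.83 (adjusted p = 0.011; 17% of 18495 genes were called lower), ERDD against ERPHF8 0.60 (0.032; 18.2% called higher) and ERDD against ERAA -0.23 (0.29). The 4 B cell markers summed to 18.8 to 24.2 CPM in the PHF8 line, 7.02 to 15.5 CPM in F279S and 8.41 to 16.3 CPM in wt. Among the ER lines they summed to 19.7 to 20.1 CPM in ERDD, 9.89 to 10.2 CPM in ERPHF8 and 10.3 to 10.4 CPM in ERAA. PAX5, 1 of the 4, averaged 12.9 CPM in the PHF8 line, 3.94 CPM in F279S and 3.01 CPM in wt, while MS4A1, which encodes CD20, averaged under 0.05 CPM in every group. Their part in the IRF4 values was not tested.

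Of the 6 members tested, 1 rose and 3 fell in PHF8 against wt, where 12.7% and 8.28% of 13683 genes did. In PHF8 against F279S none rose and 3 fell, against 12.2% and 7.92% of all genes. When the replicate number entered as a block, genes called numbered 5670 instead of 2874 against wt and 5620 instead of 2750 against F279S, and the members called were the same. In F279S against wt, 0 of 6 members were called by limma and 0 by voom on whole reads, and 1 (IRF7) had an unadjusted p below 0.05 in each. Over all genes 2 rose (0.0146%) and 0 fell (0%) in that comparison, 871 had an unadjusted p below 0.05, and 298 were called when the number was a block. The median log2 change of the 6 members was -0.19, -0.25 and 0.05 in these 3 comparisons, beside 0.01, 0.02 and -0.01 over all genes.

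In ERDD against ERAA, 3 of 6 members rose and 1 fell, where 34.8% and 33.3% of 13831 genes did. In ERPHF8 against ERAA 2 rose and 1 fell, against 29.7% and 24.1%. In ERDD against ERPHF8 2 rose and none fell, against 24.8% and 28%. The members' medians were 0.15, 0.03 and 0.10, beside 0.00, 0.04 and -0.02 over all genes. IRF7 stood apart from the other 5 by size: its log2 change in ERDD against ERAA was 2.33, and theirs lay between -0.29 and 0.38.

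**Figure D3:**
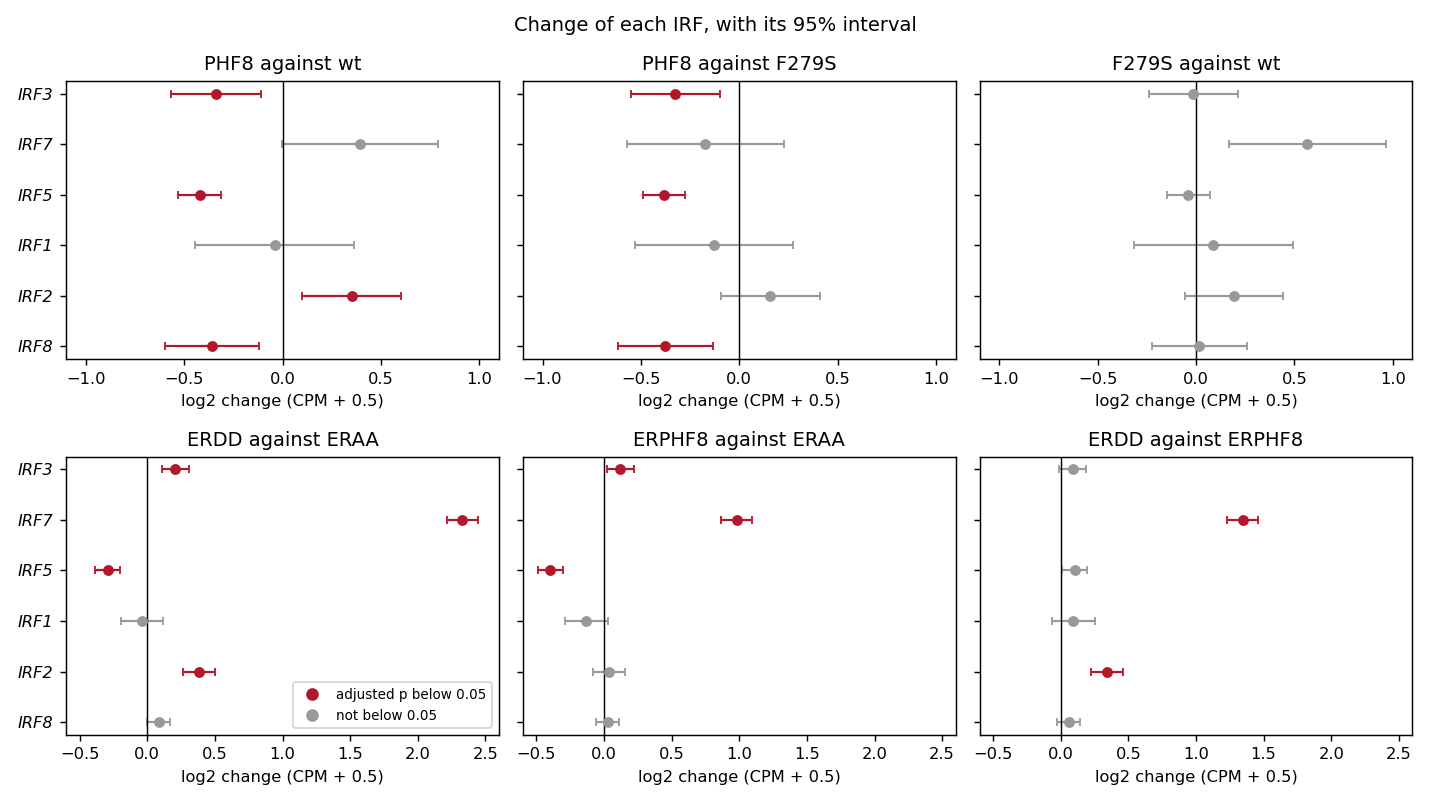
Log2 change of the 6 tested IRFs in 6 comparisons, on the log2(CPM + 0.5) scale, with 95% intervals from limma; red points passed an adjusted p of 0.05 and the lower panels have a wider axis. IRF5 was below 0 and passed in 4 comparisons, and IRF7 passed in the 3 comparisons of ER lines, up to 2.33 in ERDD against ERAA.

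Libraries 3 and 4 differed from libraries 1 and 2 in 3 of the 6 members tested, all higher, where 33.9% of all genes were higher and 29% lower: IRF1 by 0.47 ± 0.06 (adjusted p = 3.2e-05), IRF8 by 0.27 ± 0.04 (adjusted p = 5.8e-05) and IRF3 by 0.19 ± 0.06 (adjusted p = 0.012). IRF7 (0.24 ± 0.13, adjusted p = 0.11), IRF2 (0.11 ± 0.08, 0.26) and IRF5 (0.00 ± 0.04, 1) did not pass. The labels name no batch, and library totals were 18.2 to 24.3 M in libraries 1 and 2 and 20.8 to 51.5 M in libraries 3 and 4. What separates the pairs was not tested.

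**Figure D4:**
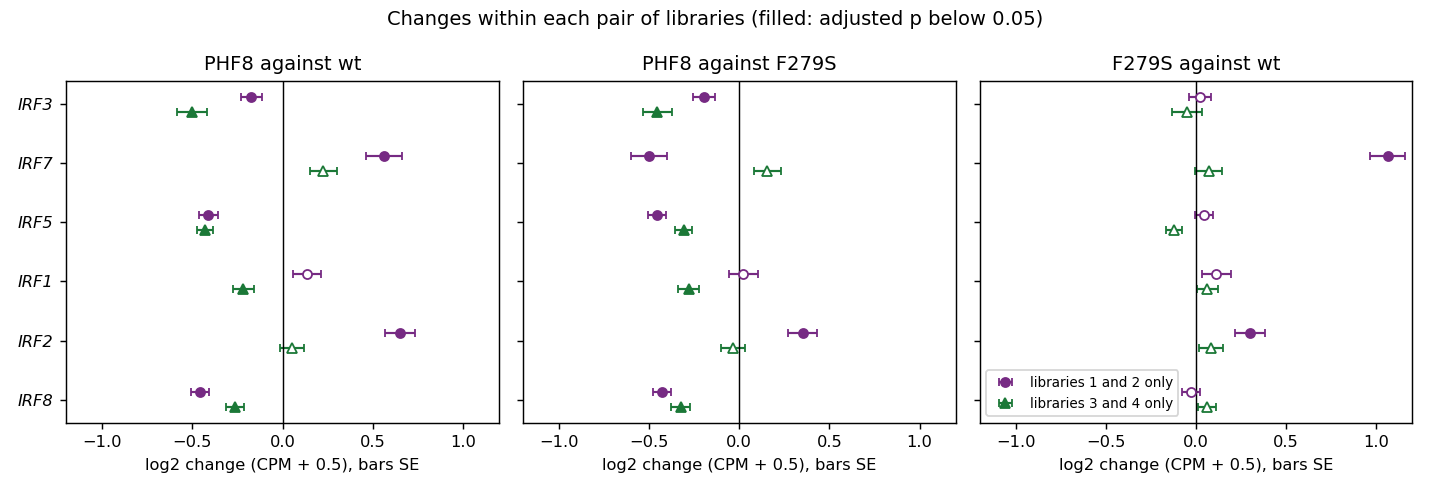
Log2 change of the 6 tested IRFs in the first experiment, fitted in libraries 1 and 2 alone (circles) and in libraries 3 and 4 alone (triangles), with SE; filled symbols passed an adjusted p of 0.05. IRF5, IRF8 and IRF3 were below 0 in PHF8 against wt in both pairs, whereas IRF7 in F279S against wt was 1.06 in 1 pair and 0.07 in the other.

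Genes around the members were read from lists of what activates them, restrains them, joins them on DNA or is known to respond to them. The shares of all genes beside which the counts stand are 12.7% higher and 8.28% lower in PHF8 against wt, 12.2% and 7.92% in PHF8 against F279S, 34.8% and 33.3% in ERDD against ERAA, 29.7% and 24.1% in ERPHF8 against ERAA, and 24.8% and 28% in ERDD against ERPHF8. The interferon and ISRE targets had the largest median change of these lists in ERDD against ERAA. In ERDD against ERAA 18 of 19 rose and 1 fell, with a median log2 change of 2.56. In ERPHF8 against ERAA 18 rose and 1 fell (median 1.21), and in ERDD against ERPHF8 18 rose and none fell (median 1.42). MX1, an antiviral GTPase, averaged 460 ± 3.65 CPM in ERDD, 107 ± 0.92 CPM in ERPHF8 and 17.6 ± 0.0336 CPM in ERAA (SD, n = 2 each). OAS2, a sensor enzyme that makes oligoadenylate, rose by 3.77 ± 0.04 in ERDD against ERAA (adjusted p = 1e-09) and by 2.01 ± 0.04 in ERPHF8 against ERAA (adjusted p = 1.4e-07). IFI44L rose by 5.88 ± 0.07 and by 3.43 ± 0.07 in the same comparisons. In PHF8 against wt 9 of 18 rose and 1 fell (median 0.49), among them OAS1 (1.69 ± 0.16, adjusted p = 2.1e-05) and RSAD2 (1.14 ± 0.11, adjusted p = 2.5e-05), while the chemokine CCL5 fell by 1.43 ± 0.16 (adjusted p = 7.3e-05). In PHF8 against F279S 5 rose and 1 fell (median 0.13). Their median in F279S against wt was 0.28. The 21 interferon genes could not be tested, since none exceeded 0.145 CPM in any library and 13 had no read in all 18. The floor of 3 reads that no read still allows was 0.0582 to 0.164 CPM, by library.

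The activators comprise the sensors, adaptors and kinases upstream of IRF3, IRF5 and IRF7. Of 25 tested, 14 rose and 6 fell in ERDD against ERAA, 11 rose and 3 fell in ERPHF8 against ERAA, and 12 rose and 6 fell in ERDD against ERPHF8, with medians of 0.21, 0.11 and 0.01. DDX58 (RIG-I), the RNA sensor, averaged 79.8 CPM in ERDD, 38.7 CPM in ERPHF8 and 24.3 CPM in ERAA, and rose by 1.70 ± 0.05 in ERDD against ERAA (adjusted p = 1.6e-07). IFIH1 (MDA5) rose by 1.67 ± 0.06 (adjusted p = 4.9e-07) and the adaptor MYD88 by 0.94 ± 0.04 (adjusted p = 9.9e-07) in ERDD against ERAA. In PHF8 against wt 3 of 22 rose and 1 fell (median 0.02), close to the shares of all genes. DDX58 (0.83 ± 0.08, adjusted p = 2e-05), TLR4 (0.53 ± 0.13, adjusted p = 0.01) and CXorf21, the adaptor TASL that recruits IRF5 (0.23 ± 0.07, adjusted p = 0.025), were those that rose. In PHF8 against F279S 2 rose and 1 fell.

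The restraining genes include corepressors and ubiquitin ligases. Of 8, 2 rose and 5 fell in ERDD against ERAA (median -0.21), 0 rose and 6 fell in ERPHF8 against ERAA (median -0.26), and 2 rose and 2 fell in ERDD against ERPHF8 (median 0.07). IRF2BP2, a corepressor that binds IRF2, averaged 456 CPM in ERDD, 701 CPM in ERPHF8 and 892 CPM in ERAA, and fell by 0.97 ± 0.04 in ERDD against ERAA (adjusted p = 9e-07). EIF4EBP1, a repressor of translation, fell by 1.02 ± 0.07 (adjusted p = 1.1e-05) in the same comparison. TRIM21, a ubiquitin ligase, was the only 1 of 8 called in PHF8 against wt (-0.30 ± 0.06, adjusted p = 0.0037) and in PHF8 against F279S (-0.52 ± 0.06, adjusted p = 0.0001).

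Partners of the IRFs on DNA changed in both directions. SPI1, which encodes PU.1, the main partner of IRF8 and IRF4, and is also among the monocytic markers, averaged 277 CPM in the PHF8 line, 352 CPM in F279S and 360 CPM in wt, and fell by 0.38 ± 0.06 against wt (adjusted p = 0.00075). BATF fell by 0.93 ± 0.13 (adjusted p = 0.00042) and SPIB rose by 0.73 ± 0.14 (adjusted p = 0.0024) in PHF8 against wt, which makes 1 higher and 2 lower of 12. The same counts held in PHF8 against F279S. In ERDD against ERAA 6 rose and 1 fell, in ERPHF8 against ERAA 6 rose and 4 fell, and in ERDD against ERPHF8 8 rose and 1 fell.

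Most genes linked to IRF1 rose in ERDD, where IRF1 itself did not pass. Of 13, 10 rose and 0 fell in ERDD against ERAA and again in ERDD against ERPHF8 (medians 0.57 and 0.54), and 4 rose and 2 fell in ERPHF8 against ERAA (median -0.02). TRIM22 rose by 3.21 ± 0.07 (adjusted p = 2.5e-08) and the tetherin gene BST2 by 1.95 ± 0.06 (adjusted p = 2.3e-07) in ERDD against ERAA. In PHF8 against wt 2 of 12 rose and 3 fell, among them GBP2, a guanylate-binding GTPase (1.80 ± 0.26, adjusted p = 0.00045), and TAPBP, which loads peptide on MHC class I (-0.38 ± 0.07, adjusted p = 0.002). In PHF8 against F279S 1 rose and 1 fell.

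Myeloid genes linked to IRF8 moved both ways. Of 11, 3 rose and 1 fell in PHF8 against wt (median 0.08), where IRF8 fell, and 2 rose and 1 fell in PHF8 against F279S. CTSS, cathepsin S (0.39 ± 0.06, adjusted p = 0.00047), BLNK, an adaptor (1.06 ± 0.19, adjusted p = 0.0021), and IL18, a cytokine (0.85 ± 0.17, adjusted p = 0.0033), rose in PHF8 against wt. Where IRF8 was nearly level, 4 rose and 5 fell in ERDD against ERAA, 1 rose and 9 fell in ERPHF8 against ERAA, and 6 rose and 3 fell in ERDD against ERPHF8. IL18 fell by 1.40 ± 0.05 (adjusted p = 3.5e-07) and CST3, cystatin C, by 0.91 ± 0.06 (adjusted p = 4.6e-06) in ERDD against ERAA.

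In F279S against wt, 0 genes of these lists were called by limma and 0 by voom on whole reads. At an unadjusted p below 0.05, limma had 6 of 18 interferon and ISRE targets, 1 of 22 activators, 1 of 8 restraining genes, 0 of 12 partners, 2 of 12 IRF1-linked and 3 of 11 IRF8-linked genes. Voom had 3 of the targets and otherwise the same numbers. Over all 13683 genes tested, 871 had an unadjusted p below 0.05 in limma and 844 in voom.

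Within the pairs of the first experiment, the median of the targets was above 0 in both pairs in PHF8 against wt and changed sign between them in PHF8 against F279S. In PHF8 against wt 11 of 18 rose and 1 fell in libraries 1 and 2 (median 0.56; 27.3% of all genes were higher and 24.1% lower), and 10 rose and 2 fell in libraries 3 and 4 (median 0.44; 23.8% and 18.3%). In PHF8 against F279S 5 rose and 7 fell in libraries 1 and 2 (median -0.13; 29.4% and 24.4%), and 9 rose and 2 fell in libraries 3 and 4 (median 0.30; 20.3% and 14.9%). In F279S against wt 13 rose and none fell in libraries 1 and 2 (median 0.51; 7.45% and 6.75%), and none was called in libraries 3 and 4 (median 0.08; 0.0439% each way).

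For the other lists, in PHF8 against wt, libraries 1 and 2 had 9 activators higher and 4 lower of 22, 2 restraining genes higher and 3 lower of 8, 3 partners higher and 4 lower of 12, 5 IRF1-linked genes higher and 4 lower of 12, and 6 IRF8-linked genes higher and 4 lower of 11. Libraries 3 and 4 had 5 activators higher and 3 lower, 1 restraining gene higher and 3 lower, 3 partners higher and 4 lower, 3 IRF1-linked genes higher and 3 lower, and 5 IRF8-linked genes higher and 1 lower. Of the list genes named for PHF8 against wt, CXorf21 did not pass in libraries 1 and 2 (0.10, adjusted p = 0.096). OAS1, RSAD2, CCL5, DDX58, TLR4, TRIM21, SPI1, BATF, SPIB, GBP2, TAPBP, CTSS, BLNK and IL18 passed in both pairs in the same direction.

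**Figure D5:**
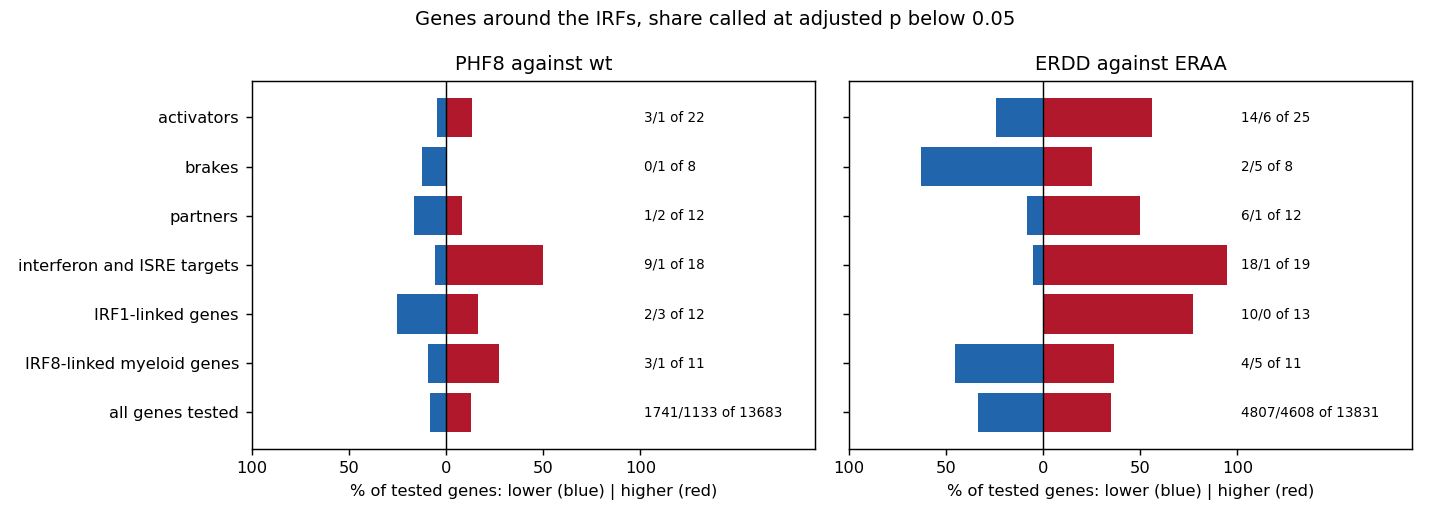
Share of the tested genes of each list called higher (red, right) or lower (blue, left) at an adjusted p below 0.05, with the counts higher/lower of tested at the side, for PHF8 against wt and ERDD against ERAA and for all genes tested at the bottom. The interferon and ISRE targets had 18 of 19 higher in ERDD against ERAA and 9 of 18 in PHF8 against wt.

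The genes closest in pattern to each member were found as those with the smallest root mean square (RMS) difference in log2(CPM + 0.5), centred within each experiment, over the 18 libraries. For IRF7 these were TRIM5 (RMS 0.194) and HELZ2 (0.207), with IRF7 itself deviating by an RMS of 0.617 from its own experiment means. TRIM5 averaged 125 CPM in ERDD, 52.7 CPM in ERPHF8 and 27.2 CPM in ERAA, and HELZ2 170 CPM in ERDD, 71.8 CPM in ERPHF8 and 38.8 CPM in ERAA. For IRF5 they were ATG9A (0.055) and CTC-490E21.12 (0.0656), for IRF3 C17orf62 (0.0579) and DCAF15 (0.058), and for IRF8 LLGL1 (0.0634) and PDXK (0.0721). For IRF1 they were CASC4 (0.0881) and AP000295.9 (0.0898), and for IRF2 SHKBP1 (0.0897) and STAC3 (0.0912). This measure centres each experiment but removes neither depth, which was 18.2 to 51.5 M reads in the first, nor the split between library pairs. TRIM22, one of the IRF1-linked genes, lies wholly inside the TRIM5 span and averaged 88.7 CPM in ERDD, 31.3 CPM in ERPHF8 and 9.17 CPM in ERAA, so TRIM5 values include its reads. AP000295.9 (with IFNAR2 and IL10RB), CTC-490E21.12 (with EGLN2), STAC3, C17orf62, DCAF15, ATG9A and LLGL1 also share part of their span with other genes of the tables.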

How the data were processed

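The authors deposited 1 table per library with an RPKM value for each of 19784 genes and its hg38 coordinates. Tools named in the submitters' processing notes are STAR 2.7.0c, SAMtools 1.9 and DESeq2, with the build hg38. Which program counted reads, and whether by strand, is not given in the sources used here. Each deposited RPKM value times the gene's full span was a whole number of reads, within 0.001 reads for 100% of values, so depth and CPM (RPKM times span in kb) were recovered. In 400 pairs of nested genes on opposite strands, reads of the outer gene were never fewer than those of the inner (100% of 5842 comparisons), as in counting without strand over the whole span. Depth was 18.2 to 51.5 M reads.

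Libraries were grouped by title and genotype label. limma 3.58.1 (R 4.3.3) with a trend was fitted to log2(CPM + 0.5), each experiment apart, over genes with at least 1 CPM in 4 libraries (first) or 2 (second), with Benjamini-Hochberg adjustment over all genes and a threshold of 0.05. Fold changes are on that scale. The fit was tested on simulated data. limma-voom on the recovered reads was an alternative. Same-numbered libraries of the first experiment deviated from their group means together (r of 0.484 to 0.908 in 12 pairs), so by the rule used (r over 0.1 in each) the number was read as pairing them. Differently numbered libraries had r of 0.235 to 0.819 within a library pair and -0.86 to -0.352 across pairs, so the likeness follows the library pair as well, and the blocked counts are given beside the results. Named genes were all 7 members, IRF9, at most 3 genes of each list by smallest p, and the 2 genes nearest in pattern to each member, among those averaging at least 5 CPM; genes overlapping a member were left out. Some genes that this rule covers are not reported here. PHF8 and BCL2L12 were named outside that rule, as the gene varied and as the gene overlapping IRF3. The members and lists were chosen with earlier results of these data known. Coordinates are hg38, 1-based. No protein sequence was used here.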

Additional observations from a re-analysis of the deposited data

How the results depend on the processing

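Some members kept their direction and their call under every alternative run. They were IRF7 and IRF2 in ERDD against ERAA and against ERPHF8, IRF7 in ERPHF8 against ERAA, and IRF3 in ERDD against ERAA. IRF5 did so in PHF8 against wt, PHF8 against F279S, ERDD against ERAA and ERPHF8 against ERAA. The alternatives were pseudocounts of 0.1 and 2, no filter or a filter at 5 CPM, median-ratio scaling, voom and the replicate block. Others were each library left out and only 2 groups in the fit. In the first experiment they also included the library pair as a factor, either pair alone and pairs averaged.

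Members called in PHF8 against wt were 4, and 2 with each pair averaged, where 1117 genes were higher and 658 lower over all genes. For PHF8 against wt, leaving out single libraries gave 1 to 3, where 2215 to 2612 of 13683 genes were called. In F279S against wt they were 0, and 2 (IRF7 and IRF2) in libraries 1 and 2 alone, where 7.45% of all genes were higher and 6.75% lower. In this comparison, leaving out single libraries gave 0 to 0, where 2 to 2 of all genes were called. In PHF8 against F279S they were 3, and 5 in libraries 1 and 2 alone, where 29.4% of all genes were higher and 24.4% lower. There, leaving out single libraries gave 1 to 3, where 2070 to 2448 of all genes were called. In ERDD against ERPHF8 they were 2. With no filter they were 4, IRF4 among them, where 18.2% of 18495 genes were higher and 19.2% lower. With only the 2 groups in the fit they were 5, where 4248 of 13831 genes were higher and 4947 lower. Leaving out an ER library left 1 in its group. The log2 change of IRF7 was then 2.292 to 2.365 in ERDD against ERAA. It was 0.948 to 1.018 in ERPHF8 against ERAA and 1.309 to 1.383 in ERDD against ERPHF8. The cause of the shifts in members called was not tested.

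Directions turned only for members that were not called. In libraries 1 and 2 alone, IRF1 was 0.135 in PHF8 against wt and 0.0217 in PHF8 against F279S, and in F279S against wt IRF5 was 0.0449, IRF8 -0.0274 and IRF3 0.0217. In libraries 3 and 4 alone, PHF8 against F279S gave -0.0341 for IRF2 and 0.156 for IRF7. Under median-ratio scaling IRF8 was -0.00298 in ERPHF8 against ERAA. Leaving out single libraries gave -0.159 to 0.0700 for IRF1 in PHF8 against wt and -0.0878 to 0.0122 in ERDD against ERAA. For F279S against wt it gave -0.0299 to 0.199 for IRF1, -0.0288 to 0.0615 for IRF8 and -0.0765 to 0.0633 for IRF3. The cause was not tested.

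Over all genes, PHF8 against wt called 2874, and 5670 with the replicate block, 5595 with the pair as a factor, 7029 in libraries 1 and 2, 5765 in libraries 3 and 4 and 1775 with pairs averaged. F279S against wt called 2, and 298, 298, 1943, 12 and 1 in the same order. PHF8 against F279S called 2750, and 5620, 5565, 7366, 4821 and 1594. Leaving out ERPHF8 library 2 gave 4863 instead of 7436 in ERPHF8 against ERAA, and ERDD against ERPHF8 gave 4306 to 5204 instead of 7305 without single libraries.

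In the first experiment the replicate block changed no member's call. The ER libraries shared only a number (r of -0.336 to 0.104 between same-numbered libraries). With the block, IRF3 in ERPHF8 against ERAA had an adjusted p of 0.064. In that fit 2 members were called, where 3785 of 13831 genes were higher and 3115 lower. With ERPHF8 numbers crossed, an alternative chosen after seeing the data, 2 members and 7853 genes were called in that comparison. IRF3 in ERPHF8 against ERAA was also lost under median-ratio scaling (0.09, adjusted p = 0.15) and with only 2 groups (0.12, adjusted p = 0.1). IRF4 was the only member that did not pass the filter on low values. The part of depth in the values of the other members was not tested.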
